A study of Mus musculus with 4 samples.

Results

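Collagens are the main structural proteins of the extracellular matrix, and each molecule is a triple helix of 3 alpha chains that separate genes encode. The collagen genes were taken here as every gene of the count tables whose symbol is Col, a number, a and a number, which gave 44 of 27998 genes. By structure they were 11 fibrillar chains, 6 chains of the basement membrane network, 6 beaded filament chains, 1 anchoring fibril chain, 3 hexagonal network chains, 9 fibril-associated chains, 4 transmembrane chains, 2 multiplexins and 2 other collagens. They were followed in muscle stem cells (MuSC) sorted as ITGA7+/VCAM+ and negative for the lineage markers CD11b, SCA1, CD45 and CD31 from hindlimb muscle. The B10 group (strain C57/Bl10ScsSn, 15 weeks of age) and the DBA group (DBA/2, 13 weeks) have functional dystrophin. The *mdx* group (C57BL/10ScSn-Dmdmdx, 11 weeks) and the D2-*mdx* group (D2.B10-Dmdmdx, 14 weeks) carry the *mdx* mutation of *Dmd* in every cell from birth, and D2-*mdx* has the DBA/2 background, in which muscle fibrosis is more severe. Each group was 1 library of cells pooled from 2 mice. Strain, age and library therefore cannot be told apart, there is no replicate error, and no difference between groups could be tested. The intervals below are exact 95% Poisson or binomial intervals of the counts, and they cover counting error only.

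Fibrillar collagens such as collagen I and collagen III form the fibers that give connective tissue its tensile strength, and fibroblasts are their main source in muscle. Collagen IV, collagen XV and collagen XVIII belong to the basement membrane that covers the satellite cell and its fiber, and collagen VI links that membrane to the fibers outside. Satellite cells also make collagens for their own niche. Collagen V made by satellite cells is known to keep them quiescent through the calcitonin receptor *Calcr*.

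Unique molecular identifiers (UMIs), each standing for 1 captured transcript, totalled 43542853 to 75482888 per library. After filtering, 3279 to 6313 cells per library remained, of which 4418 in B10 and 4818 in *mdx*, and 2701 in DBA and 4179 in D2-*mdx* were myogenic. Between 3 and 8 cells of a pair of libraries carried the same cell barcode. Clusters were formed with all collagen genes left out and were named by marker genes, so that a name means resemblance. The MuSC-like class held 4169, 3401, 2567 and 3063 cells in B10, *mdx*, DBA and D2-*mdx*. A DMD enriched-like class, named by *Postn*, *Mest*, *S100a11*, *Islr* and *Cdkn1c*, held 35, 931, 42 and 568 cells. These markers summed to 727, 3365, 716 and 2421 UMIs per 1000000 UMIs (CPM) in that class, above 370 to 621 in MuSC-like cells, but to 827, 6672, 1399 and 5122 in differentiating myocyte-like cells, so they do not set the class apart from the latter. The healthy cells of the class largely lacked *Cdkn1c* (30.1, 1302, 56.7 and 638 CPM in the same order of libraries) and *Postn* (2.51, 326, 38.9 and 180.3). Without integration of the libraries before clustering, the class held 16, 2346, 0 and 19 cells, so its extent in each library rests on that step. Its markers were chosen by the study on these samples, and the study also described that state by collagen I genes, so its collagen level is not independent evidence. The B10 library stood apart in 4278 barcodes with under 500 genes, against 11 to 14 in the others. They were left out, and their UMIs held 1011 collagen UMIs per 1000000 UMIs. The *mdx* mutation is a point mutation that 3′ UMIs do not read. *Dmd* itself, in the myogenic cells, was at 324 CPM in B10 and 120 in *mdx*, and 287 in DBA and 94.4 in D2-*mdx*. *Pax7*, the defining transcription factor of satellite cells, was at 907, 424, 695 and 426 in the same order.

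The start regions of 3 members with contrasting levels are shown first, from RefSeq on GRCm38.p6, as the 250 bases before the annotated start and 5′ to 3′ on the strand of the gene. *Col3a1* was the most abundant member in MuSC-like cells of all 4 libraries, *Col8a1* was among the members higher in both dystrophic libraries, and *Col15a1* was lower in both. Capitals mark matches on either strand to 1 of 3 short motifs of start regions. The first is the TATA box (TATAAA). The second is the CAAT box, spelled CCAAT. The third is the GC box (GGGCGG), to which the SP1 family binds. The *Col3a1* window is chr1:45311288-45311537 on the plus strand, the *Col8a1* window is chr16:57754738-57754987 on the minus strand, and the *Col15a1* window is chr4:47207762-47208011 on the plus strand. For *Col15a1* the RefSeq start lies upstream of the GENCODE M21 start at 47208161, so its window does not reach the latter.
Col3a1: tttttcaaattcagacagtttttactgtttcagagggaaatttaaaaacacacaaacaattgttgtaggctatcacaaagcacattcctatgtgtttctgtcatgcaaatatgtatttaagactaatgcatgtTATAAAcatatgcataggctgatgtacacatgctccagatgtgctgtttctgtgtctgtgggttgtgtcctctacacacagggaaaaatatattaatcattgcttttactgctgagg
Col8a1: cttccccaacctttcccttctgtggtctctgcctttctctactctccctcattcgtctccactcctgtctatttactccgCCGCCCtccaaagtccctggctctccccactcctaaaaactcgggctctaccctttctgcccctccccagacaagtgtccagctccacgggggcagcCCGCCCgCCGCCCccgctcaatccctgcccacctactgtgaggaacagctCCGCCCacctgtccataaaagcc
Col15a1: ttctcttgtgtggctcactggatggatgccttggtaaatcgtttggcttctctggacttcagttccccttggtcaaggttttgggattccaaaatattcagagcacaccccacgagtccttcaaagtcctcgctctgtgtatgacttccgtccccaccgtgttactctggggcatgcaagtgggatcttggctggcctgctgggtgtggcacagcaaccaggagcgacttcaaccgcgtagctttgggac
The *Col3a1* window holds 1 match, to the letters of the TATA box, 117 to 112 bases before the start. The *Col8a1* window holds 4 matches, all to the GC box read on the opposite strand, and the *Col15a1* window holds 0. RefSeq start regions were found for 35 of the 44 members, with 38 start regions in all. The GC box was in 22 of these 38 (57.9%) and in 32.7% of all 32851 start regions of the same length. For the CAAT box the shares were 34.2% and 33.8%, and for the TATA box 13.2% and 12.4%. A match of letters is a description of the window and not a binding site.

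Summed over the 44 genes, collagens made up 2164 CPM (95% interval 2149 to 2179) in B10 MuSC-like cells and 3289 (3266 to 3314) in *mdx*. The sums were 2635 (2616 to 2654) in DBA but 3203 (3179 to 3228) in D2-*mdx*. Both dystrophic libraries were above both healthy ones. The fibrillar chains carried most of this gap, with 1176, 2110, 1412 and 2006 CPM in B10, *mdx*, DBA and D2-*mdx*, or 54.3%, 64.2%, 53.6% and 62.6% of the collagen UMIs. Beaded filament chains lay close together, between 248 and 269 CPM. Basement membrane network chains were at 441 CPM in B10 and between 562 and 580 in the other 3 libraries. The multiplexins went the other way, with 199 and 250 CPM in B10 and DBA against 164 and 166 in *mdx* and D2-*mdx*.

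DMD enriched-like cells had the highest sums among the myogenic classes with 20 or more cells in each library, at 3699 CPM in B10 and 4923 in *mdx*, and 3732 in DBA and 3941 in D2-*mdx*. In D2-*mdx* the lead over the 31 immunomyoblast-like cells lay within the counting error of the latter. Differentiating myocyte-like cells had less collagen in the dystrophic libraries, where *mdx* had 1233 CPM and D2-*mdx* 1178 but B10 1937 and DBA 2324. In the same cells the 8 satellite cell markers summed to 723 CPM in *mdx* and 724 in D2-*mdx* against 3126 in B10 and 2366 in DBA, and the part of this difference in the collagen levels was not tested. Pericyte-like cells were nearly level across libraries, between 7442 and 8357 CPM. The 29 fibroblast- or tenocyte-like cells of *mdx* and the 50 of D2-*mdx* had the highest sums of all classes, 40473 and 31665 CPM. White blood cell-like cells carried 725 CPM in *mdx* and 720 in D2-*mdx*, and 1450 in DBA. Their satellite cell markers summed to 762 and 742 CPM in *mdx* and D2-*mdx*, and to 3225 in DBA, where MuSC-like cells had 6274. Such UMIs can come from free RNA in the droplets, and the part of free RNA in the levels of the other classes was not tested. Whether white blood cell-like cells also make collagen was not tested. With their higher satellite cell markers, the 23 DBA cells of this class are not taken as a clean measure of free RNA.

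**Figure D1:**
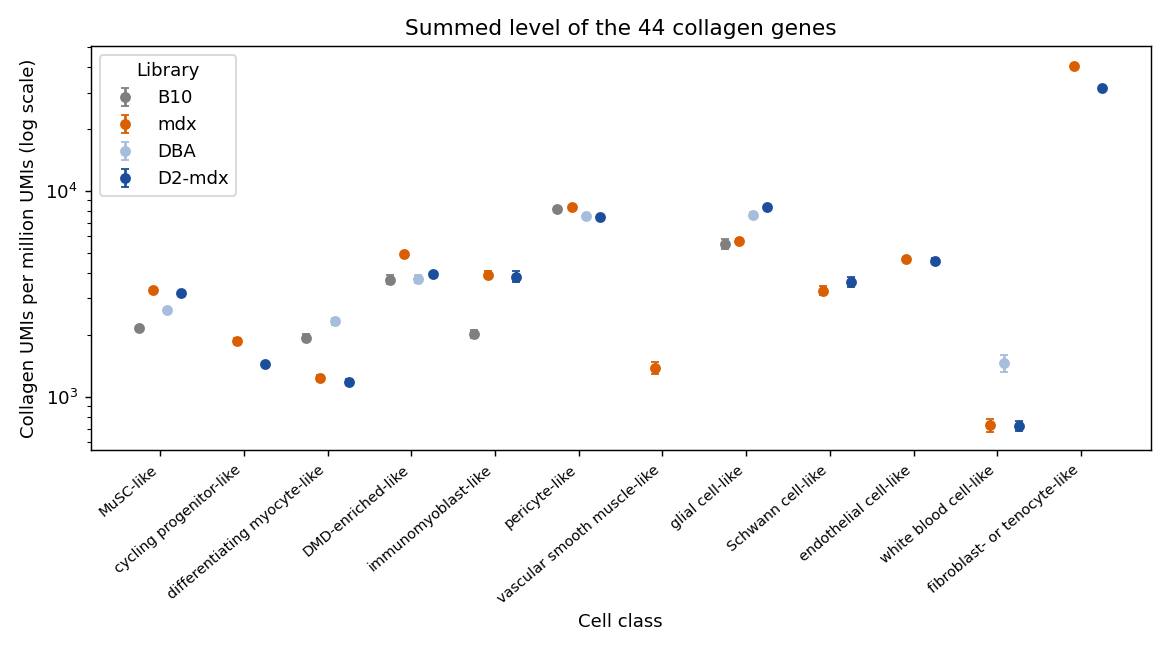
Summed collagen UMIs per 1000000 UMIs (CPM, y axis, log scale) in each cell class (x axis) with 20 or more cells, 1 point per library, with bars for exact 95% Poisson intervals that are mostly smaller than the points. MuSC-like cells sit at 2164 in B10 and 2635 in DBA and above 3000 in both dystrophic libraries, while fibroblast- or tenocyte-like cells reach 40473 in *mdx*.

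All 44 members had at least 1 UMI in the kept cells. In the myogenic cells 32 had 50 or more UMIs over at least 1 pair of compared libraries, and 29 had them over both disease pairs. The 12 members under 50 UMIs in every pair were *Col2a1*, *Col4a3*, *Col6a4*, *Col6a5*, *Col8a2*, *Col9a1*, *Col9a2*, *Col9a3*, *Col10a1*, *Col11a2*, *Col22a1* and *Col28a1*. They include the cartilage chains *Col2a1*, *Col9a1* and *Col10a1*. Among the classes and libraries with 50 or more UMIs of the gene, the level was highest in fibroblast- or tenocyte-like cells for 14 members, in glial cell-like cells for 6, in DMD enriched-like cells for 5 and in endothelial cell-like cells for 3. It was highest in MuSC-like cells for *Col4a6*, *Col7a1* and *Col19a1*, in differentiating myocyte-like cells for *Col26a1* and in Schwann cell-like cells for *Col28a1*. The remaining 11 members had under 50 UMIs in every class of every library. Only MuSC-like cells held 50 UMIs of *Col4a6* or *Col7a1*, so by this rule no other class could be highest for them. The same held for *Col25a1* in DMD enriched-like, *Col9a3* in glial cell-like and *Col22a1* in fibroblast- or tenocyte-like cells. The class of the highest level was not counted over all genes. These counts of members by class therefore have no background and are not read as particular to collagens.

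**Figure D2:**
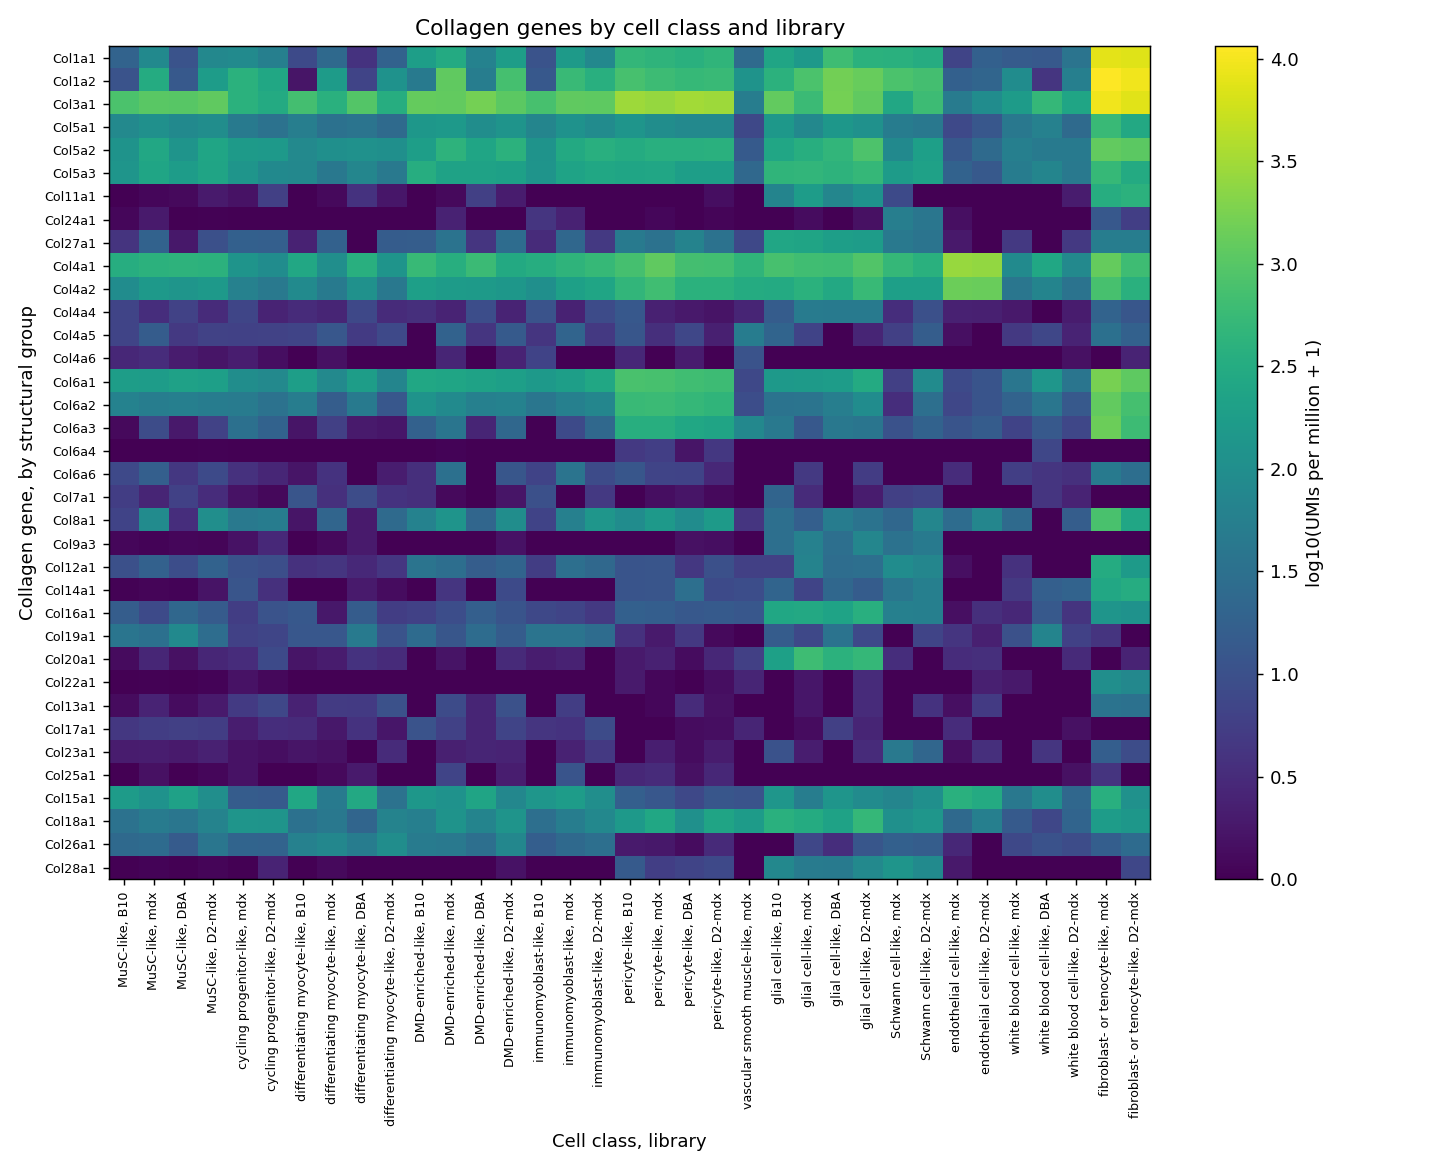
Level of each collagen gene (rows, by structural group) in each class and library (columns, 20 or more cells), as log10 of CPM plus 1. *Col3a1* is bright in nearly every column, *Col4a1* and *Col4a2* are brightest in endothelial cell-like cells (2679 and 1408 CPM in *mdx*), and *Col20a1* in glial cell-like cells (641 CPM in *mdx*).

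To see which collagens differed with dystrophy, the UMIs of all myogenic cells were summed per library. A member was counted as past 2-fold where the ratio of its CPM exceeded 2 in either direction, among genes with at least 50 UMIs over the pair. Of 31 members in *mdx* over B10, 15 were past 2-fold higher (8.45% of all 12775 genes were) and 3 lower (7.94%). In D2-*mdx* over DBA, 12 of 30 were past 2-fold higher (9.61% of all 12608 genes) and 4 lower (8.57%). The median log2 ratio of the collagens was 0.70 and 0.77, beside -0.05 and -0.09 over all genes. *Col1a1*, *Col1a2*, *Col6a3*, *Col6a6*, *Col8a1*, *Col13a1*, *Col14a1*, *Col18a1*, *Col20a1* and *Col27a1* were past 2-fold higher in both comparisons, *Col4a4* and *Col7a1* were past 2-fold lower in both, and 10 members were within 2-fold in both. *Col20a1* rested on 14, 56, 17 and 88 myogenic UMIs in B10, *mdx*, DBA and D2-*mdx*, and 5.63% of its UMIs lay in myogenic cells. Its level was highest in glial cell-like cells, of which these libraries held 23, 357, 31 and 231. The part of glial RNA in its myogenic ratios was not tested. The comparisons share no library. The share of all genes past 2-fold in both comparisons was not computed. Counts of members in both therefore have no background and are not read as particular to collagens. In the MuSC-like class alone, 10 of 27 members were past 2-fold higher in *mdx* over B10 (5.02% of all genes) and 3 lower (6.26%), and 8 of 26 were higher in D2-*mdx* over DBA (6.24%) and 4 lower (6.54%), with collagen medians of 0.40 and 0.48.

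**Figure D3:**
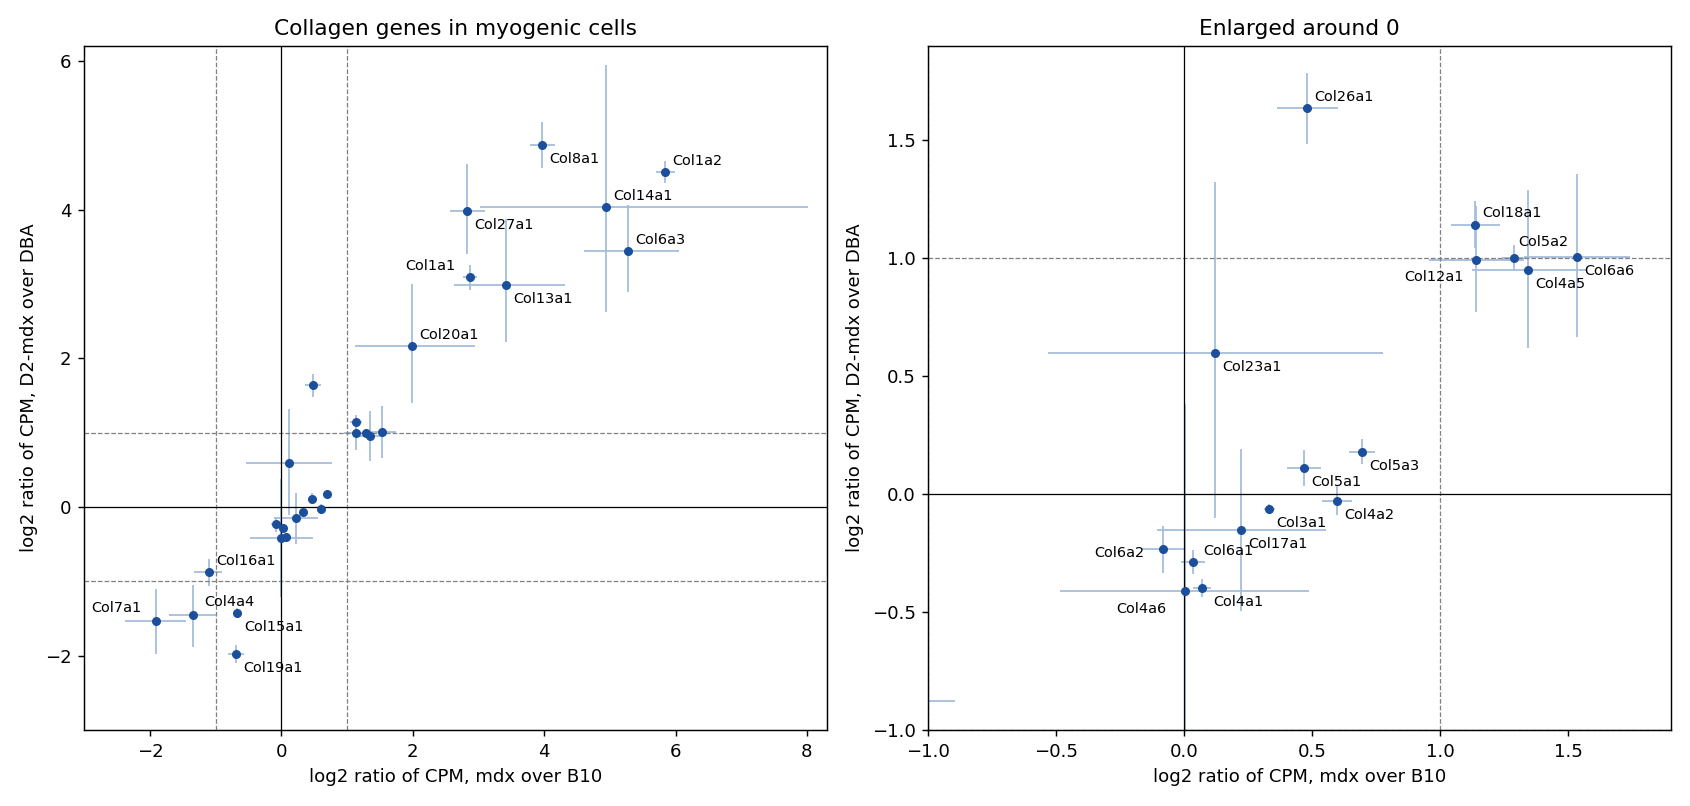
log2 ratio of CPM in myogenic cells for *mdx* over B10 (x axis) and D2-*mdx* over DBA (y axis), 1 point for each of the 29 members with 50 or more UMIs in both pairs, with bars for 95% counting intervals, whole on one side and enlarged around 0 on the other. Dashed lines mark 2-fold. *Col1a2* lies at 5.85 and 4.50, *Col8a1* at 3.97 and 4.86, and *Col7a1* at -1.91 and -1.53.

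Collagen I is built from the chains of *Col1a1* (chr11:94936224-94953042, GRCm38) and *Col1a2* (chr6:4504814-4541544). In MuSC-like cells *Col1a2* was at 9.75 CPM (8.77 to 10.8) in B10 and 311 (303 to 318) in *mdx*, and 12.5 (11.3 to 13.9) in DBA but 173 (168 to 179) in D2-*mdx*. *Col1a1* was at 18.7 CPM (17.3 to 20.1), 84.5 (80.7 to 88.4), 9.86 (8.74 to 11.1) and 78.0 (74.2 to 82.0), respectively. Without integration of the libraries before clustering, *Col1a2* was at 458 CPM in the MuSC-like cells of *mdx* and 110.4 in those of D2-*mdx*. Both chains were low in the healthy libraries and high in the dystrophic ones, with no overlap of intervals. For *Col1a2* the log2 ratio in MuSC-like cells was 4.99 (4.84 to 5.15), or 31.8-fold, in *mdx* over B10 and 3.79 (3.63 to 3.95), or 13.8-fold, in D2-*mdx* over DBA. For *Col1a1* it was 2.18 (2.05 to 2.30) and 2.98 (2.80 to 3.17). White blood cell-like cells held *Col1a1* as well, at 35.9 CPM in D2-*mdx* from 69 UMIs. They had 15 *Col1a1* UMIs of 1079340 in *mdx* and 4 of 316545 in DBA. Neither healthy *Col1a1* level is read as expression, and the part of free RNA in the *Col1a1* levels was not tested. Healthy and dystrophic MuSC-like cells were themselves not alike in all markers. *Pax7* was at 919, 520, 715 and 566 CPM in those of B10, *mdx*, DBA and D2-*mdx*. *Cdkn1c* was at 19.4, 111, 18.7 and 54.4 CPM, while *Myf5* lay between 417 and 486. The ratios are therefore not read as a change within one kind of cell. Over all myogenic cells the *Col1a2* ratios were 57.5-fold and 22.7-fold, and those of *Col1a1* 7.32-fold and 8.52-fold.

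The larger myogenic ratios went with a larger DMD enriched-like class, which held 0.764%, 14.7%, 1.28% and 9.87% of the kept cells in B10, *mdx*, DBA and D2-*mdx*. In that class *Col1a2* was at 45.1 CPM (26.7 to 71.3) in B10 and 1178 (1159 to 1198) in *mdx*, and 51.8 (35.4 to 73.1) in DBA but 739 (719 to 759) in D2-*mdx*. The summed *Col1a2* level of the class was thus above that of MuSC-like cells in every library. In *mdx* and D2-*mdx*, cycling progenitor-like cells (394 and 261 CPM) and immunomyoblast-like cells (564 and 359) were also above MuSC-like cells. Differentiating myocyte-like cells were below them, at 168 and 118 CPM. In B10 and DBA the level of the DMD enriched-like class rested on 18 and 32 UMIs. With each cell thinned to 3000 UMIs, 33 of the 35 cells of the class in B10 had no *Col1a2* UMI. The same held for 41 of its 42 cells in DBA. The higher level in the healthy libraries is therefore not read as a property of the class. The healthy and dystrophic cells of the class are not alike in its own markers, as given above, and their satellite cell markers summed to 4282 and 3631 CPM in B10 and DBA against 2397 and 2092 in *mdx* and D2-*mdx*, so the values are given side by side and not as a change within one kind of cell. It held 62.4% of the myogenic *Col1a2* UMIs in *mdx* (61.8% to 63.0%) from 19.3% of the myogenic cells and 29.9% of all their UMIs, and 50.01% in D2-*mdx* (49.0% to 51.0%) from 13.6% of the cells and 19.98% of the UMIs. With 19 cells in D2-*mdx* without integration, the class gave no level there. In B10 and DBA it held 4.59% and 8.16%. *Col3a1*, by contrast, was at 1255, 1213, 1604 and 1079 CPM in the class, above its level in MuSC-like cells in 3 libraries and below it in D2-*mdx*.

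The *Col1a2* UMIs were spread over many cells. With each cell thinned to 3000 UMIs, 2.59% of MuSC-like cells in B10 (2.13% to 3.12%) and 42.4% in *mdx* (40.7% to 44.1%), and 3.66% in DBA (2.97% to 4.46%) and 30.9% in D2-*mdx* (29.3% to 32.6%) had a *Col1a2* UMI. Without thinning, at median depths of 8346, 5716, 10187 and 5697 UMIs, the shares were 5.997%, 57.5%, 10.0% and 47.6%. White blood cell-like cells had thinned shares of 9.82% in *mdx* and 11.0% in D2-*mdx*. In DBA it was 0 of 23 such cells, which at a limit of 3 counts allows up to 13.0% of cells with a UMI. Their *Col1a2* level was 93.6 CPM in *mdx* and 55.6 in D2-*mdx*, below the MuSC-like level in the same library. B10 had 1 white blood cell-like cell and gives no such value. The share in DBA lay under its limit, and neither healthy share is read as expression. In DMD enriched-like cells the thinned share reached 88.0% in *mdx* and 71.0% in D2-*mdx*. Thinning left out 39 myogenic cells of B10 and 0 of the other libraries.

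**Figure D4:**
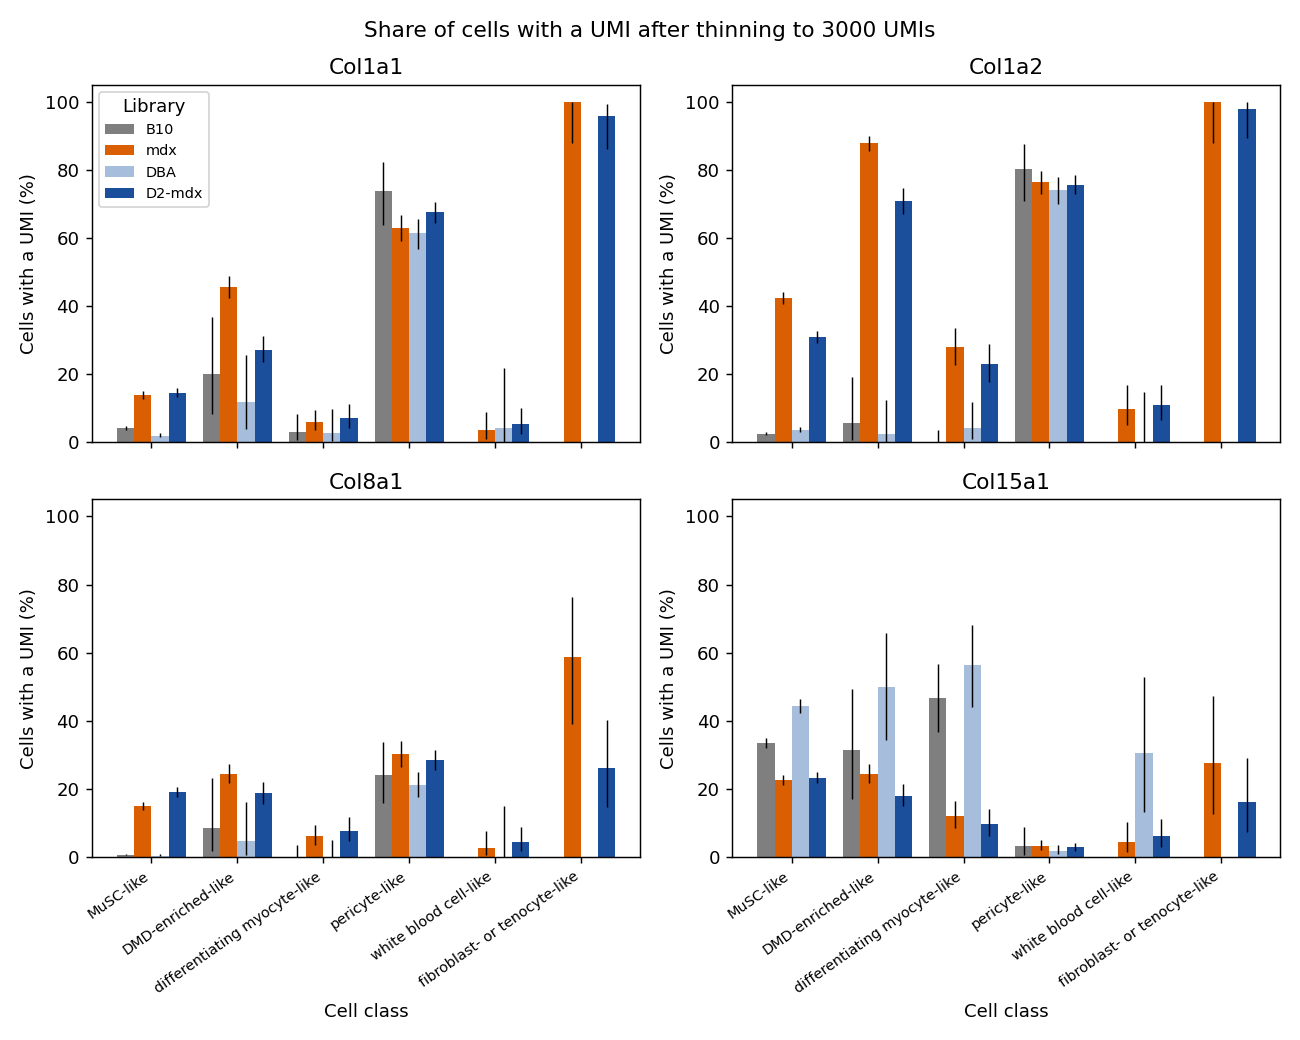
Percent of cells with a UMI of *Col1a1*, *Col1a2*, *Col8a1* or *Col15a1* (y axis, from 0) by class (x axis) after thinning to 3000 UMIs, 1 bar per library with exact 95% binomial intervals. *Col1a2* stands at 42.4% of MuSC-like and 88.0% of DMD enriched-like cells in *mdx*, and *Col15a1* is the only panel in which the healthy MuSC-like bars (33.5% and 44.3%) are the taller ones.

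MuSC-like cells with *Col1a2* also carried satellite cell transcripts. *Pax7* is a marker that named this class, and *Pdgfra* and *Dcn* are markers that named the fibroblast- or tenocyte-like class. Their shares within a class are thus partly set by its naming and are not independent evidence. Among MuSC-like cells with a *Col1a2* UMI, *Pax7* was found in 92.5% in B10 and 75.5% in *mdx*, and 81.9% in DBA and 78.2% in D2-*mdx*, beside 90.5%, 73.3%, 85.6% and 77.4% of those without, and the counting intervals of each pair overlapped. *Pdgfra*, the receptor that marks fibro-adipogenic progenitors, was found in 0 of 1441 *Col1a2*-positive MuSC-like cells in *mdx* and in 1 of 947 in D2-*mdx*, but also in no more than 8 of 29 and 17 of 49 *Col1a2*-positive fibroblast- or tenocyte-like cells. *Dcn*, a proteoglycan gene found in all of those 29 and 49 cells, was in 1.87% and 7.18% of the *Col1a2*-positive MuSC-like cells of *mdx* and D2-*mdx*, beside 2.45% and 8.03% of those without *Col1a2*, and the counting intervals of each pair overlapped. The 9 fibroblast or tenocyte markers summed to 7.6 CPM in B10 MuSC-like cells and 16.8 in those of *mdx*, and to 7.8 in DBA and 71.0 in D2-*mdx*, all 9 being detected in each library. In white blood cell-like cells they summed to 14.8 in *mdx* and 72.8 in D2-*mdx*, about the level of the MuSC-like cells of the same library, and in fibroblast- or tenocyte-like cells to 20912 and 17454. In DMD enriched-like cells they summed to 0, 8.3, 16.2 and 52.0 CPM, with 0 to 9 of the 9 detected. The part of fibroblast RNA in the collagen I levels was not tested.

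The ratio of *Col1a2* to *Col1a1* UMIs also differed. Capture at the 3′ end differs between genes, so a ratio of UMIs of different genes is compared here only between classes and not read as a ratio of chains. MuSC-like cells had 0.522 *Col1a2* UMIs per *Col1a1* UMI in B10 and 3.68 in *mdx*, and 1.27 in DBA and 2.22 in D2-*mdx*. In DMD enriched-like cells the ratio was 0.24, 3.94, 0.842 and 4.14, of which B10 rested on 18 and 75 UMIs and DBA on 32 and 38. In *mdx* and D2-*mdx* it was higher in cycling progenitor-like cells (4.51 and 4.71) and differentiating myocyte-like cells (7.30 and 6.53). Immunomyoblast-like cells were at 3.42 and 4.57. Pericyte-like cells stayed between 1.28 and 1.51 in all 4 libraries, and fibroblast- or tenocyte-like cells were at 1.44 in *mdx* and 1.30 in D2-*mdx*. MuSC-like cells were thus above the pericyte-like and fibroblast- or tenocyte-like cells of the same library in *mdx* and D2-*mdx*. In B10 they were below the pericyte-like cells. The healthy MuSC-like ratios rest on levels that are not read as expression, so they are not read as a difference between classes. Glial cell-like cells were at 1.68 in B10 and 5.39 in *mdx*, and 2.54 in DBA and 3.33 in D2-*mdx*. The ratio in white blood cell-like cells was 6.73 in *mdx*, from 101 *Col1a2* and 15 *Col1a1* UMIs, and 1.55 in D2-*mdx*. Both classes were thus above the pericyte-like cells of the same library in *mdx*.

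**Figure D5:**
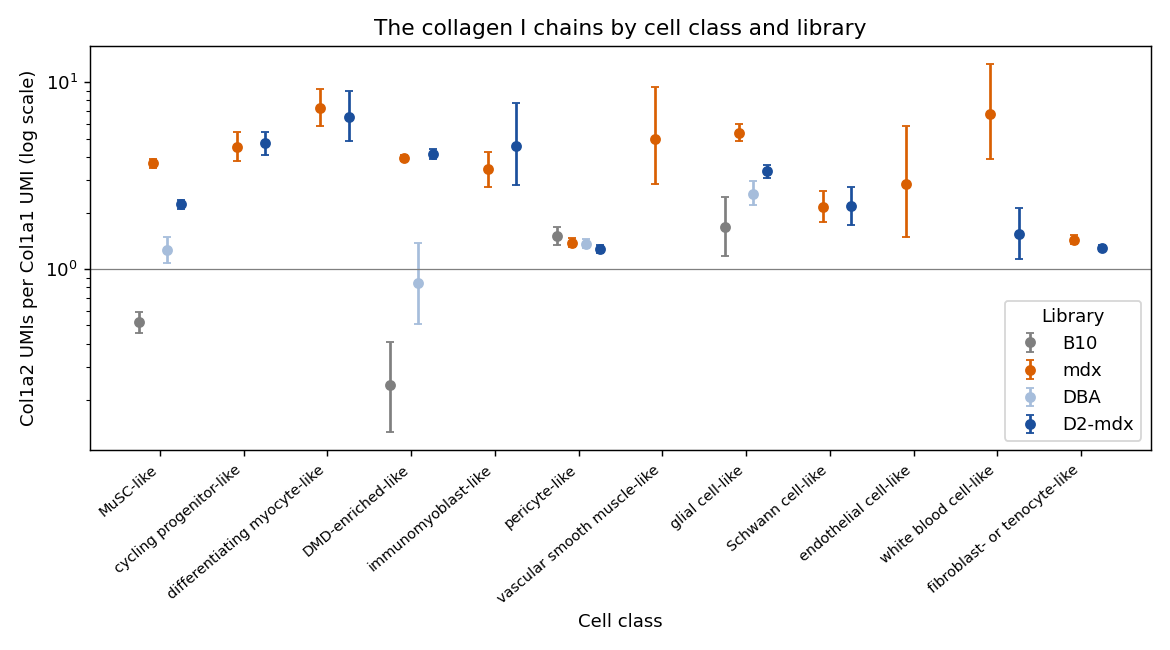
*Col1a2* UMIs per *Col1a1* UMI (y axis, log scale) by class (x axis), 1 point per library, with bars from exact 95% binomial intervals. Pericyte-like and fibroblast- or tenocyte-like points lie between 1.28 and 1.51, while the MuSC-like points run from 0.522 in B10 to 3.68 in *mdx*. The healthy MuSC-like points rest on levels that are not read as expression.

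Among the other fibrillar chains, *Col3a1* (chr1:45311538-45349706), the single chain of collagen III, was the most abundant collagen of MuSC-like cells. It was at 809 CPM in B10 (800 to 818) and 1068 in *mdx* (1054 to 1082), and 1008 in DBA (996 to 1019) and 1171 in D2-*mdx* (1156 to 1186), or 32.5% to 38.2% of the collagen UMIs. Its log2 ratio was 0.40 in *mdx* over B10 and 0.22 in D2-*mdx* over DBA. By ratio, dystrophic MuSC-like cells thus differed little in *Col3a1* beside collagen I. In CPM the *Col3a1* gap was about as wide as that of *Col1a2* in D2-*mdx* over DBA, and somewhat narrower in *mdx* over B10. *Col5a2* (chr1:45374321-45503282), a chain of the collagen V that seeds fibrils, lies tail to tail with *Col3a1* with 24614 bases between them. It was at 122 CPM in B10 and 275 in *mdx*, and 125 in DBA and 242 in D2-*mdx*. Its partner *Col5a1* was at 80.9, 107, 83.6 and 98.4 CPM, so that *Col5a2* UMIs per *Col5a1* UMI were 1.51, 2.58, 1.49 and 2.46. *Col5a3* was at 131, 247, 172 and 233 CPM. Over all myogenic cells *Col5a2* was 2.45-fold higher in *mdx* and at the edge of 2-fold, with a log2 ratio of 1.00 (0.94 to 1.05), in D2-*mdx*.

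*Col27a1*, a fibrillar chain known from developing cartilage, had 128 UMIs in B10 myogenic cells and 920 in those of *mdx*, and 26 in DBA and 474 in D2-*mdx*. The log2 ratio of *Col27a1* was 2.83 (2.56 to 3.11) in *mdx* over B10 and 3.98 (3.41 to 4.61) in D2-*mdx* over DBA. It was the 1 member past 2-fold lower in DBA over B10, at -1.90 (-2.56 to -1.28), a ratio that turned to 1.26 over all kept cells. Its level in glial cell-like cells was far higher than in myogenic cells, at 251, 230, 186 and 173 CPM in the 4 libraries. *Col11a1* had 1, 9, 13 and 51 myogenic UMIs in B10, *mdx*, DBA and D2-*mdx*, and *Col24a1* had 10, 40, 0 and 1. These counts are small: the *Col11a1* ratio of D2-*mdx* over DBA was 1.76 (0.86 to 2.76), and that of *Col24a1* in *mdx* over B10 was 1.98 (0.96 to 3.15). The *Col11a1* ratio of D2-*mdx* over *mdx*, 2.71 in the myogenic cells, was -0.053 over all kept cells.

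*Col8a1* (chr16:57624258-57754737), whose short chain forms hexagonal networks in vessels and in the cornea, differed by more than 10-fold in both disease comparisons. In MuSC-like cells it was at 5.50 CPM in B10 (4.77 to 6.30) and 91.7 in *mdx* (87.8 to 95.8), and 2.41 in DBA (1.87 to 3.06) and 99.3 in D2-*mdx* (95.03 to 104). Both dystrophic libraries were far above both healthy ones. The log2 ratio was 4.06 (3.85 to 4.28), or 16.7-fold, in *mdx* over B10 and 5.36 (5.01 to 5.73), or 41.2-fold, in D2-*mdx* over DBA. After thinning, 0.654%, 15.0%, 0.390% and 19.0% of MuSC-like cells had a *Col8a1* UMI, beside 2.68% of white blood cell-like cells in *mdx* and 4.29% in D2-*mdx*. Unlike *Col1a2*, its level in DMD enriched-like cells of the dystrophic libraries (124 and 97.3 CPM) was near that in their MuSC-like cells. In pericyte-like cells its log2 ratios were 0.70 and 0.77.

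The chains of collagen IV, the core network of the basement membrane, come in gene pairs that start head to head. *Col4a1* and *Col4a2* on chromosome 8 have starts 21 bases apart, *Col4a3* and *Col4a4* on chromosome 1 have starts 72 apart, and *Col4a5* and *Col4a6* on chromosome X 1309 apart. *Col4a1* was at 333, 409, 423 and 407 CPM in MuSC-like cells of B10, *mdx*, DBA and D2-*mdx*, and the myogenic log2 ratios were 0.07 in *mdx* over B10 and -0.40 in D2-*mdx* over DBA. *Col4a2* UMIs per *Col4a1* UMI were 0.282, 0.370, 0.305 and 0.372 in MuSC-like cells and 0.526 and 0.523 in endothelial cell-like cells of *mdx* and D2-*mdx*. The minor chains differed within their pairs. *Col4a4* was at 5.71, 2.41, 5.39 and 2.12 CPM in MuSC-like cells, lower in both dystrophic libraries, while *Col4a3* had 0 to 3 myogenic UMIs per library. *Col4a5* had 232, 596, 110 and 246 myogenic UMIs, with ratios of 1.34 (1.12 to 1.57) and 0.95 (0.62 to 1.29), while *Col4a6* had 73, 74, 31 and 27.

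*Col15a1* (chr4:47208161-47313167), a multiplexin that anchors the basement membrane of muscle fibers and vessels, was lower in the myogenic cells of both dystrophic libraries than in those of their healthy counterparts. In MuSC-like cells it was at 167 CPM in B10 (162 to 171) and 116 in *mdx* (112 to 121), and 212 in DBA (207 to 218) and 102 in D2-*mdx* (98.0 to 107). Both dystrophic libraries lay under both healthy ones, with log2 ratios of -0.52 (-0.59 to -0.45) in *mdx* over B10 and -1.05 (-1.12 to -0.98) in D2-*mdx* over DBA. In differentiating myocyte-like cells B10 had 262 CPM and DBA 280 but *mdx* 43.9 and D2-*mdx* 33.3, beside the higher satellite cell markers of the healthy cells of that class given above. After thinning, 33.5%, 22.6%, 44.3% and 23.3% of MuSC-like cells had a *Col15a1* UMI, beside 4.46%, 30.4% and 6.13% of white blood cell-like cells of *mdx*, DBA and D2-*mdx*. The share in DBA white blood cell-like cells rests on 7 of 23 cells. The other multiplexin, *Col18a1*, the precursor of endostatin, went the opposite way, with 1315, 2929, 1147 and 2929 myogenic UMIs and log2 ratios of 1.14 (1.04 to 1.23) and 1.14 (1.04 to 1.24). In DMD enriched-like cells *Col18a1* was at 119 CPM in *mdx* and 125 in D2-*mdx*, beside 47.6 and 63.7 in MuSC-like cells.

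*Col19a1* (chr1:24261890-24587472), a rare fibril-associated collagen of basement membrane zones, had its highest level in MuSC-like cells. It was at 36.4 CPM in B10 (34.5 to 38.4) and 30.5 in *mdx* (28.3 to 32.9), and 84.3 in DBA (80.9 to 87.8) and 27.6 in D2-*mdx* (25.4 to 29.97). DBA stood apart from the other 3 libraries. *Col19a1* was the 1 member past 2-fold higher in DBA over B10, by 1.21 on the log2 scale in the myogenic cells, and it was -1.98 in D2-*mdx* over DBA but -0.69 in *mdx* over B10. White blood cell-like cells carried 66.3 CPM in DBA from 21 UMIs, against 9.26 and 5.20 in *mdx* and D2-*mdx*. *Col7a1*, the chain of the anchoring fibril, was at 4.44, 1.68, 5.18 and 2.32 CPM in MuSC-like cells, and its myogenic log2 ratios were -1.91 (-2.38 to -1.45) and -1.53 (-1.98 to -1.10).

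In collagen VI, a heterotrimer of microfibrils that muscle needs, the main chains differed in behavior. *Col6a1* was at 178, 175, 208 and 192 CPM in MuSC-like cells of B10, *mdx*, DBA and D2-*mdx*, with little difference between libraries. *Col6a3* was nearly absent, with 18 myogenic UMIs in B10 and 28 in DBA, but had 709 in *mdx* and 353 in D2-*mdx*. The *Col6a3* log2 ratios were 5.28 (4.61 to 6.05) and 3.45 (2.89 to 4.06), and 64.0% and 43.6% of its dystrophic myogenic UMIs were in DMD enriched-like cells. Pericyte-like cells held 237 to 351 CPM of *Col6a3* across the 4 libraries. Its level was highest in fibroblast- or tenocyte-like cells (1419 CPM in *mdx*), and 14.3% of its UMIs lay in myogenic cells. The part of RNA from other classes in its myogenic counts was not tested. *Col6a6*, a paralog of *Col6a3*, had 260, 762, 102 and 237 myogenic UMIs and ratios of 1.53 (1.33 to 1.74) and 1.01 (0.67 to 1.36).

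Of the remaining fibril-associated and transmembrane chains, *Col12a1*, which binds the surface of collagen I fibrils, had ratios of 1.14 (0.96 to 1.33) and 0.99 (0.77 to 1.22). *Col14a1*, its close relative, had 2, 62, 4 and 76 myogenic UMIs, of which DMD enriched-like cells held 64.5% in *mdx* and 65.8% in D2-*mdx*. Only 15.9% of all *Col14a1* UMIs lay in myogenic cells, and its level was highest in fibroblast- or tenocyte-like cells (332 CPM in D2-*mdx*). The part of fibroblast RNA in its myogenic counts was not tested. *Col13a1*, a transmembrane collagen of the neuromuscular junction, had 14, 151, 15 and 138 myogenic UMIs and ratios of 3.41 (2.62 to 4.32) and 2.99 (2.22 to 3.87). *Col25a1*, a transmembrane collagen that motor axons need to enter muscle, was nearly restricted to *mdx* by count, with 1, 92, 2 and 12 UMIs, and 76.1% of the *mdx* UMIs were in DMD enriched-like cells. Its ratio in *mdx* over B10 was 6.51 with an interval of 3.99 to 11.83. *Col16a1* had ratios of -1.11 (-1.32 to -0.90) and -0.88 (-1.06 to -0.70). Over all kept cells its ratio in *mdx* over B10 turned to 0.51, and it was far higher in glial cell-like cells (223 to 366 CPM) than in MuSC-like cells (7.09 to 21.9 CPM). *Col26a1* had its highest level in differentiating myocyte-like cells, at 59.4, 74.4, 50.7 and 98.3 CPM, and its ratios were 0.48 (0.36 to 0.60) and 1.64 (1.49 to 1.79).

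Between the dystrophic strains, D2-*mdx* over *mdx*, 1 of 31 members was past 2-fold higher (*Col11a1*, with 4.51% of all genes past it) and 4 were lower (*Col4a5*, *Col4a6*, *Col6a6* and *Col25a1*, with 3.24%). Over all myogenic cells the log2 ratio was -0.94 (-0.97 to -0.90) for *Col1a2* and -0.67 (-0.74 to -0.61) for *Col1a1*, both lower in D2-*mdx*. In MuSC-like cells alone the values were -0.84 and -0.11, and in DMD enriched-like cells -0.67 and -0.74. *Col8a1* differed little, at -0.09 (-0.16 to -0.02). Between the healthy strains, DBA over B10, 1 of 25 members was past 2-fold higher (3.88% of all genes) and 1 lower (3.93%), and the median of the collagens was 0.06, beside 0.01 over all genes. Over all kept cells, non-myogenic ones included, the counts in DBA over B10 were 9 of 31 (8.46% of all genes) and 0 (3.18%), where myogenic cells made up 96.4% of the kept cells in B10 and 82.4% in DBA. These comparisons share their libraries with the disease comparisons.

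Few members were past 2-fold in pericyte-like cells. There, 0 of 18 members were past 2-fold higher in *mdx* over B10 (2.15% of all genes) and 0 lower (3.58%). In D2-*mdx* over DBA, *Col12a1* and *Col18a1* were higher (2 of 19, with 2.87% of all genes) and *Col14a1* and *Col27a1* lower (2 of 19, with 4.04%). *Col1a2* was at 748, 597, 522 and 574 CPM in pericyte-like cells of B10, *mdx*, DBA and D2-*mdx*, and *Col1a1* at 494, 431, 382 and 447. The *Col1a2* ratios there were -0.32 (-0.44 to -0.21) and 0.14 (0.07 to 0.21). Endothelial cell-like cells were dominated by *Col4a1* and *Col4a2*, which made up 57.4% and 30.2% of their collagen UMIs in *mdx*. Glial cell-like cells were marked by *Col20a1*, at 203, 641, 404 and 508 CPM, and *Col28a1* reached 129 CPM in Schwann cell-like cells of *mdx*.

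Genes that fold, process, cross-link and bind collagen were counted by the same rule, beside the shares of all genes given above (8.45% higher and 7.94% lower in *mdx* over B10, and 9.61% and 8.57% in D2-*mdx* over DBA). The folding and hydroxylation counts were near these shares, and no count in the shorter cross-linking and receptor lists exceeded 2 genes. Of 18 folding and hydroxylation genes with enough UMIs, 2 were past 2-fold higher in *mdx* over B10 and 0 in D2-*mdx* over DBA, and 1 was lower in each, the prolyl 3-hydroxylase *P3h2* (-1.92 and -1.23). *Serpinh1*, the collagen chaperone HSP47, was at 228, 721, 251 and 446 CPM in the myogenic cells, with ratios of 1.66 (1.63 to 1.70) and 0.83 (0.79 to 0.87). Of 6 genes of propeptide processing, 3 were higher and 1 lower in *mdx* over B10, and 5 were higher and 0 lower in D2-*mdx* over DBA. Among them the N-propeptidase *Adamts2* had 54, 802, 21 and 514 UMIs and ratios of 3.88 (3.48 to 4.30) and 4.40 (3.78 to 5.11). Its relatives *Adamts3* (1.85 and 1.29) and *Adamts14* (1.61 and 2.32) were higher as well. The enhancer of C-propeptide cleavage *Pcolce2* was at 28.1, 8.79, 1.59 and 4.59 CPM.

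Of 4 cross-linking genes, 1 was past 2-fold higher and 1 lower in *mdx* over B10, and 0 in either direction in D2-*mdx* over DBA. *Lox*, the lysyl oxidase, was at 2.08, 5.65, 3.22 and 4.91 CPM. Of 9 receptors and uptake genes, 2 were higher and 1 lower in *mdx* over B10, and 1 was higher and 2 lower in D2-*mdx* over DBA. The adhesion receptor *Cd44* was at 30.6, 80.8, 16.1 and 63.8 CPM. *Mrc2*, the endocytic receptor that clears collagen fragments, was at 43.1, 16.4, 46.9 and 16.7 CPM, with ratios of -1.40 (-1.53 to -1.27) and -1.49 (-1.63 to -1.35). *Calcr*, which binds collagen V in satellite cells, was at 91.7, 54.5, 72.3 and 39.1 CPM, with ratios of -0.75 (-0.83 to -0.67) and -0.89 (-0.98 to -0.79), within 2-fold in both. In MuSC-like cells alone *Calcr* was at 93.6, 76.5, 74.6 and 55.9 CPM, a smaller difference in each pair. It is also among the markers that named that class.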

How the data were processed

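Each library was made with the 10X Genomics 3′ v3.1 chemistry. The authors ran Cell Ranger 3.0.1 against the mm10 genome and deposited raw UMI counts per gene and barcode without normalization. Whether the deposited barcodes had been filtered is not given in the sources used here. Sums of these counts were divided by the UMIs of the class and library (CPM).

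By the limits of the study, cells had to show 1000 to 5000 genes and no more than 8% mitochondrial UMIs, and the cells with the highest Scrublet scores (scanpy 1.11.5) were removed as doublets up to a fraction of 0.008 per 1000 cells. Libraries were integrated with Seurat 5.3.0 on R 4.3.3 (2000 features without collagen genes, 30 dimensions) and clustered at resolution 0.1, and the myogenic cells again at 0.2. Clusters were named by the markers with the highest standardized mean, with at least 3 markers detected in 10% of cells. One cluster at resolution 0.2 held both differentiating and DMD enriched markers, so its cells took their names from resolution 0.4, a choice made after the marker content was seen. Classes under 20 cells in a library give no level.

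The members and gene lists were chosen with earlier results of these data known. Members with 50 UMIs over a pair of libraries, or in a class, could be named with values, and a gene of the 4 lists of collagen-related genes was named when past 2-fold in both disease comparisons or when it was *Calcr*, *Serpinh1* or *Lox*. With 1 library per strain no test was run. Intervals are exact at 95% (Poisson for levels, Clopper-Pearson for shares and ratios, scipy 1.17.1), cover counting error only, and are set by depth, from 30136920 to 40365888 UMIs in myogenic cells. A ratio against a library at 0 used a floor of 3 counts per library. Shares of cells were computed after thinning each cell to 3000 UMIs. The ratio calculation was tested on simulated counts. Start regions came from RefSeq and gene coordinates from GENCODE M21. Alternatives included other cell filters, scalings by edgeR 4.0.16 (TMM) and DESeq2 1.42.0 (size factors), and clustering with collagen genes as features.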

Additional observations from a re-analysis of the deposited data

Results flagged for a closer look

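*Pcolce2*, whose product enhances the cleavage of procollagen C-propeptides, went opposite ways in the disease comparisons on the different backgrounds. In the myogenic cells it had 1120 UMIs in B10 and 355 in *mdx*, for a log2 ratio of -1.67 (-1.85 to -1.50). DBA had 48 UMIs and D2-*mdx* 160, for a log2 ratio of 1.53 (1.05 to 2.02). It was 17.6-fold lower in DBA than in B10. With 1 library per strain the difference between the ratios was not tested. No collagen gene was past 2-fold in opposite directions.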

How the results depend on the processing

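No paired analysis was possible because each strain is 1 library, and for the same reason no replicate could be left out. Of 369 alternative log2 ratios of the members past 2-fold, 301 stayed within the counting interval and 65 left it without a change of sign. As the members were chosen for being past 2-fold, a kept sign was likely, and 366 kept their sign. The 3 that changed it did so over all kept cells, non-myogenic cells included: *Col16a1* in *mdx* over B10 (0.51), *Col11a1* in D2-*mdx* over *mdx* (-0.053) and *Col27a1* in DBA over B10 (1.26). Scaling by TMM or size factors moved no count of members by more than 1.5 times. The intervals cover the counts alone, so values below are said to move when they leave them. Counts of genes are said to move when they change by more than 1.5 times or to or from 0. By these rules 62 alternative counts, levels and shares moved and 101 did not. The cause of the shifts was not tested.

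Over all kept cells, members past 2-fold lower in *mdx* over B10 numbered 1 (3 in the myogenic cells), those higher in D2-*mdx* over *mdx* 0 (against 1), and those higher and lower in DBA over B10 9 and 0 (against 1 and 1). In MuSC-like cells only, 0 were higher in D2-*mdx* over *mdx*, 2 were lower in DBA over B10, and 5 collagen-related genes were higher in *mdx* over B10 (against 8). With at least 200 UMIs over the pair, D2-*mdx* over *mdx* had 0 higher and 2 lower (against 4), and DBA over B10 had 0 lower. With no minimum, D2-*mdx* over *mdx* had 3 higher, and DBA over B10 had 6 higher and 2 lower. With at least 500 genes per cell and no upper limit, or with predicted doublets kept, DBA over B10 had 2 higher, and with a mitochondrial limit of 5% it had 3 lower. Apart from the shares of all genes given further above, none were computed under these settings. The counts in this paragraph are therefore not read as particular to collagens.

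Summed collagen in MuSC-like cells of B10, *mdx* and D2-*mdx* was 2130, 3365 and 3387 CPM with at least 500 genes, 2132, 3199 and 3178 at the 5% limit, 2129, 3374 and 3353 with doublets kept, and 2142, 3326 and 3353 at resolution 0.4. With collagen genes among the features it was 2147 in B10 and 3300 in D2-*mdx*. As a mean of per-cell CPM it was 2102 in B10, 3125 in *mdx* and 2614 in DBA. Without integration it was 3778 in *mdx*. In DMD enriched-like cells of *mdx* it was 5086 with at least 500 genes, 4854 at the 5% limit, 4605 without integration and 5019 as a mean of cells. In those of D2-*mdx* it was 4095 with at least 500 genes, 3743 with doublets kept, 3893 with collagen features and 4031 as a mean of cells, and the class had 19 cells, too few for a value, without integration.

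*Col1a2* in MuSC-like cells of *mdx* and D2-*mdx* was 293 and 162 CPM with at least 500 genes, 295 and 164 at the 5% limit, and 300.1 and 161 with doublets kept. It was 293 and 159 with collagen features, 458 and 110.4 without integration, 290.0 and 162 at resolution 0.4, and 269 and 161 as a mean of cells. Its share of cells was 32.3% and 22.3% at 2000 UMIs, 59.6% and 43.3% at 5000, and 57.5% and 47.6% without thinning. Thinning leaves out cells under its depth, and the median depths of these cells were 5716 and 5697 UMIs. The shares at 5000 therefore cover fewer cells than the others and are not read as an effect of depth alone.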
